A study of Mus musculus with 14 samples.

Results

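The 9 genes described here encode the heat shock chaperones of the cytosol and of the mitochondrial matrix: Hspa8, Hspa1a, Hspa1b, Hsph1, Dnajb1, Hsp90aa1, Hsp90ab1, Hspd1 and Hspe1. They were taken by gene symbol from a deposited table of 56748 genes, and each symbol occurred once. Ovaries of female C57BL/6J mice labelled WT were measured by bulk RNA sequencing in 14 libraries. The control groups had 3 libraries at day 7 (numbered 10, 51 and 53) and 3 at day 89 (R123, R124 and R126), and the groups given dextran sulfate sodium (DSS) had 4 at day 7 (75, 80, 81 and 82) and 4 at day 89 (R29, R38, R78 and R89). DSS is a polymer that injures the lining of the colon and gives mice colitis, and the design asks how the ovary differs at the end of DSS exposure and after a long rest. No label gives an age or ties a library to its own animal, and the p-values here therefore reflect variation among libraries that could in part be technical.

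Heat shock chaperones hold newly made or damaged proteins in a form that can fold. In the cytosol, a J-domain protein hands the substrate to an Hsp70, which passes many kinases and steroid hormone receptors on to Hsp90. In mitochondria, imported proteins fold inside a barrel of HSP60 closed by a lid of HSP10. When unfolded proteins accumulate, the transcription factor HSF1 binds heat shock elements, repeats of a short GAA unit in alternating orientation, and switches on the inducible members.

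The genes lie on 6 chromosomes of GRCm38. The constitutive Hsp70, Hspa8 (ENSMUSG00000015656), spans chr9:40800984-40810087 on the plus strand and contains the small nucleolar RNA genes Snord14c, Snord14d and Snord14e on the same strand. The stress-inducible Hsp70 copies are single-exon genes on the minus strand, Hspa1b (ENSMUSG00000090877) at chr17:34956436-34959238 and Hspa1a (ENSMUSG00000091971) at chr17:34969190-34972156. The longest open reading frames of these copies differed at 8 of 1926 aligned bases, so the split of reads between them is uncertain. Hspa1a is also overlapped by Gm20481 on the opposite strand, and the part of that gene in the Hspa1a reads was not tested. Hsph1, an Hsp110 nucleotide exchange factor, lies at chr5:149614287-149636376 on the minus strand, and Dnajb1, the J-domain partner of the inducible Hsp70, at chr8:83608193-83612653 on the plus strand. The Hsp90 pair, inducible Hsp90aa1 (chr12:110690605-110702728) and constitutive Hsp90ab1 (chr17:45567775-45573271), are both on the minus strand and share 76.4% of aligned coding bases. Hspd1, which encodes HSP60, spans chr1:55077835-55088243 on the minus strand, and Hspe1, which encodes HSP10, spans chr1:55088132-55091307 on the plus strand. The annotated spans of this head-to-head pair overlap by 112 bases at their starts, and no source used here gives the strand setting of the counting.

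Promoter windows of 300 bases, from 250 before to 50 after the start, were found in RefSeq on GRCm38.p6 for 6 of the 9 genes. The windows of Hspe1, Hsph1 and Hspa1b are shown because they cover the shared promoter of the mitochondrial pair, the widest-ranging member and an inducible Hsp70. Capitals mark matches, on either strand, to the heat shock unit pairs TTCNNGAA and GAANNTTC or to the motif of 3 units GAANNTTCNNGAA, which contains both pairs.
Hspe1 (chr1:55087898-55088197, plus strand): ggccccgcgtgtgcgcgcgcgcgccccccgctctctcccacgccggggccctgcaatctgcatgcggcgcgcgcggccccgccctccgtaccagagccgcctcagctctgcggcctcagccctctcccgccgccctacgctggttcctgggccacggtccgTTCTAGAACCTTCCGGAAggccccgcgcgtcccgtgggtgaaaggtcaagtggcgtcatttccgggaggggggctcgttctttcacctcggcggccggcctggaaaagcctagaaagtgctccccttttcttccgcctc
Hsph1 (chr5:149636287-149636586, minus strand): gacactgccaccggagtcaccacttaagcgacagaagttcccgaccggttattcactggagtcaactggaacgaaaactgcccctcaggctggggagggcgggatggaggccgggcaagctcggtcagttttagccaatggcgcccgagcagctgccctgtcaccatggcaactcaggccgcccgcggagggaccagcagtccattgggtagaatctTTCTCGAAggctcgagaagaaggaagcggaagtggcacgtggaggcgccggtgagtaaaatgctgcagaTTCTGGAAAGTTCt
Hspa1b (chr17:34959189-34959488, minus strand): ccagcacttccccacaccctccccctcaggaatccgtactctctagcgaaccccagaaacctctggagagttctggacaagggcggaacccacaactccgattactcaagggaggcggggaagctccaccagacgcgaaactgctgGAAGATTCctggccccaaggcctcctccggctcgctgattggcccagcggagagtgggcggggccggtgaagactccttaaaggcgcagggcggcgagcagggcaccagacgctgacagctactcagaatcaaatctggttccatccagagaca
The Hspe1 window held 2 overlapping matches to the motif of 3 units in a run of 18 bases that begins 89 bases before the start. The same run lies in a Hspd1 window read from the other strand (chr1:55087883-55088182), 144 bases before the start of that Hspd1 transcript, while the window of another Hspd1 start (chr1:55088194-55088493) held no match. The Hsph1 window shown held 1 match, which begins at base 37 after the start. In the window of another Hsph1 start (chr5:149636266-149636565) the same match begins at base 16. The Hspa1a and Hspa1b windows differ at 4 bases and each held 1 GAANNTTC pair and no motif of 3 units, and both Dnajb1 windows held none of the 3 patterns. Of 32851 mouse windows of this length, 0.603% held the motif of 3 units and 15.1% held at least 1 of the pairs. A match describes these letters and is not evidence of binding.

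The deposited values are FPKM, which divide a gene's fragments by its length and by library depth, so levels can be compared between genes per length. Reads recovered from the steps in the values came to 15256018 to 18505144 per library. All 9 genes passed the filter of 0.5 FPKM in at least 3 libraries, and together they took 0.433% to 0.623% of reads. The share of reads from the mitochondrial genome was 9.96% and 12.2% in control libraries 10 and 53 and 14.2% in DSS library 75, against 0.479% to 4.04% in the other 11 libraries. A score for short against long genes (mean centred log2 of genes up to the lower quartile of length minus that of genes above the upper quartile) lay between 0.119 and 0.418 at day 7 and between -0.381 and -0.24 at day 89, except in DSS library R38, where it was 0.107. All 7 oocyte and all 6 luteal markers were present, while of 8 retina markers, looked at because the extraction text names another tissue, Rom1 reached 7.22 FPKM and none of the others exceeded 0.293.

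By mean FPKM the order was led in every group by Hsp90ab1 and then Hspa8, and it ended with Hspa1b and then Hspa1a. Hsp90ab1 ranged from 633 to 915 FPKM and Hspa8 from 288 to 520.3 FPKM over the 14 libraries, so their libraries did not overlap. Hspa1b (2.54 to 8.60 FPKM) and Hspa1a (1.501 to 3.34 FPKM) were far lower. Of tested genes, 38.7% had a lower mean than Hspa1a and 54.6% a lower mean than Hspa1b, against 99.8% for Hsp90ab1. Between these ends, Hsp90aa1, Hspd1 and Hspe1 exchanged places 3 to 5 between groups, and Hsph1 and Dnajb1 exchanged places 6 and 7. The ratio of the highest to the lowest library was widest for Hsph1 (4.07), Hspa1b (3.38) and Hspe1 (3.31) and narrowest for Hsp90ab1 (1.44).

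**Figure D1:**
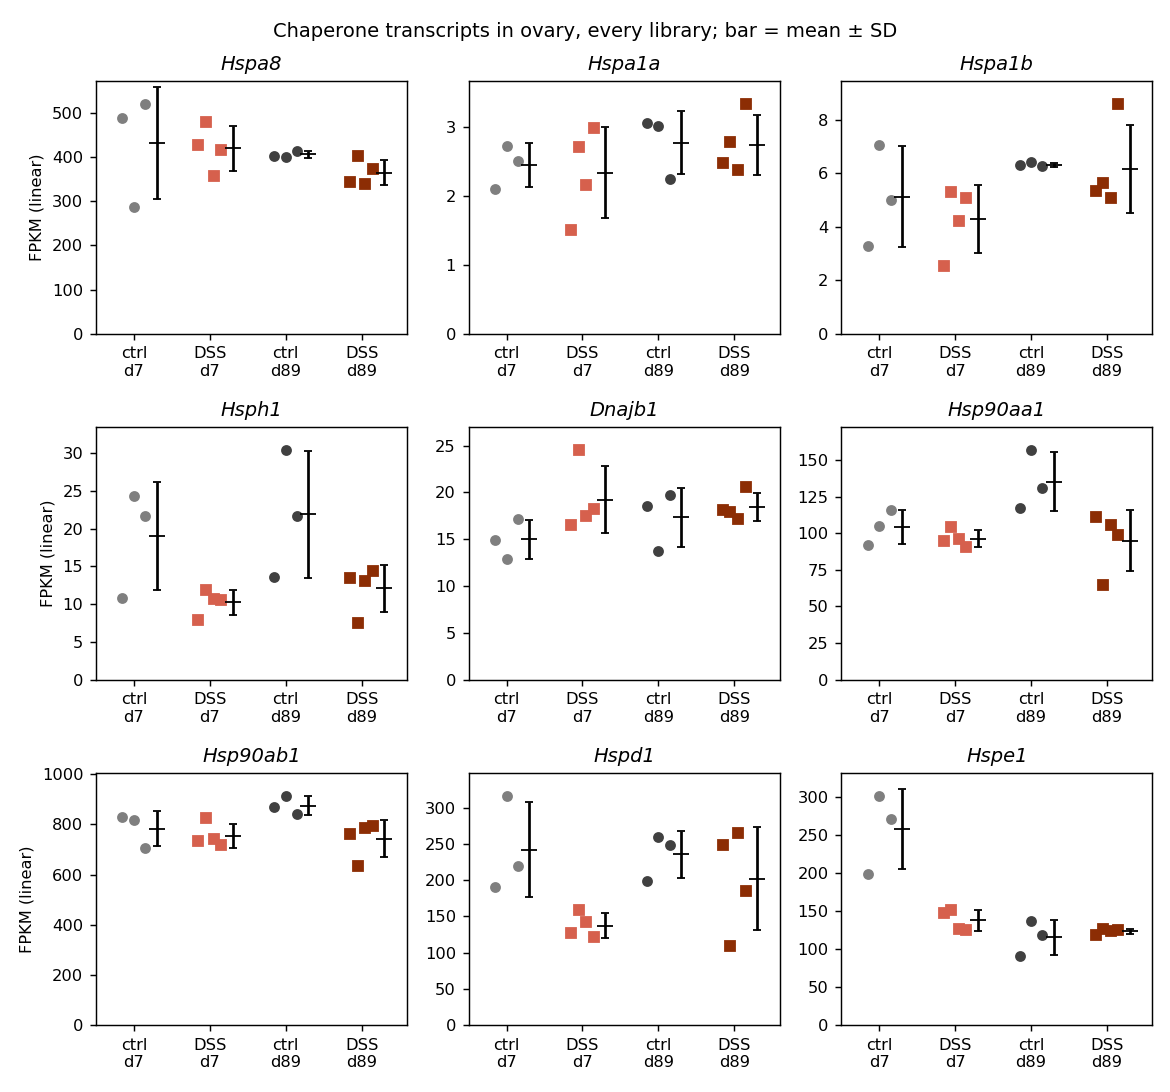
Each panel plots the FPKM of 1 chaperone gene (linear axis from 0) in every library of the control (ctrl, circles) and DSS (squares) groups at day 7 (d7) and day 89 (d89), with the mean ± SD beside each group. All DSS libraries lie below all controls for Hspd1 and Hspe1 at day 7 and for Hsp90aa1 and Hsp90ab1 at day 89, and Hspe1 is lower in all day 89 than in all day 7 controls.

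At the end of DSS exposure, the mitochondrial pair and Hsph1 held the lowest values relative to controls, and the cytosolic Hsp70 and Hsp90 genes overlapped between groups. None of the 9 genes passed an adjusted p of 0.05 in limma, a threshold passed by 6 of 18006 genes (0.0333%). The largest of the 3 differences with an unadjusted p under 0.05 was that of Hspe1, at -0.88 on the log2(FPKM + 1) scale. The share of all tested genes with such a p was 16%. Of the 9 differences, 8 were below 0, with a median of -0.11 against 0.00 over all tested genes. With FPKM set to the same sum in every library, which moved the median of all genes to 0.10, 4 of 9 lay below 0 and 7 of 9 below that median. With limma-voom on the recovered reads, which moved it to 0.09, 6 of 9 lay below 0, 8 of 9 below that median, and none passed.

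The first group is the Hsp70 proteins. Hspa8, which folds new proteins in unstressed cells, measured 488, 288 and 520.3 FPKM in controls 10, 51 and 53 and 426, 480.3, 356 and 415 FPKM in DSS libraries 75, 80, 81 and 82. Library 51 gave the lowest value of all, and the DSS libraries lay inside the control range. The fitted difference was -0.00 (SE 0.20, adjusted p = 1). It took opposite signs in the libraries of high mitochondrial share (-0.24, 1 DSS against 2 control) and in the others (0.52, 3 DSS against 1 control).

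The inducible copies overlapped between groups. Hspa1b measured 3.30, 7.08 and 4.99 FPKM in controls and 2.54, 5.31, 4.22 and 5.10 FPKM in DSS libraries. Hspa1a measured 2.11, 2.73 and 2.52 FPKM in controls and 1.501, 2.71, 2.16 and 2.99 FPKM in DSS libraries. For both copies the lowest DSS and the lowest control libraries were 75 and 10, which also had high mitochondrial shares. Because of the near-identical sequences, their values were also summed, weighted by gene length: the sum lay between 5.38 and 9.69 FPKM in controls and between 4.01 and 8.03 FPKM in DSS libraries, from 156 to 601 reads per library over both days. The difference of the sum was -0.17 (exact permutation test, two-sided, p = 0.571, smallest possible p 0.0286), with the groups overlapping.

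The partners of Hsp70 differed from each other. Hsph1, which releases ADP from Hsp70 and also holds unfolded proteins, measured 10.8, 24.4 and 21.7 FPKM in controls 10, 51 and 53 and 7.91, 11.8, 10.7 and 10.50 FPKM in DSS libraries. The DSS values lay below controls 51 and 53, while control 10 lay among them. The fitted difference was -0.77 (SE 0.30, 95% interval -1.42 to -0.12, unadjusted p = 0.0236, adjusted p = 0.249). The 3 libraries of high mitochondrial share alone gave -0.88, and the remaining 4 gave -1.08. Dnajb1, which brings substrates to Hsp70, measured 14.9, 12.9 and 17.1 FPKM in controls and 16.6, 24.6, 17.5 and 18.3 FPKM in DSS libraries. It was the member with a positive difference, 0.33 (SE 0.16, adjusted p = 0.327), which was 0.22 without DSS library 80, and library 75 lay under the highest control.

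The Hsp90 pair was level at day 7. Hsp90aa1 measured 92.2, 105 and 116 FPKM in controls and 94.7, 104, 96.0 and 90.6 FPKM in DSS libraries. Hsp90ab1 measured 829.2, 816 and 705 FPKM in controls and 734, 825, 742 and 720.1 FPKM in DSS libraries. In both genes the groups overlapped, and the 95% intervals of the differences ran from -0.50 to 0.28 for Hsp90aa1 and from -0.42 to 0.32 for Hsp90ab1.

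The mitochondrial pair was lower in every DSS library than in every control at day 7. Hspd1 measured 190.3, 316 and 220 FPKM in controls 10, 51 and 53 and 127, 159, 142 and 121 FPKM in DSS libraries 75, 80, 81 and 82. Hspe1 measured 199, 302 and 272 FPKM in those controls and 148, 152, 127 and 125 FPKM in those DSS libraries. These were the 2 members without overlap, a pattern seen in 12.1% of tested genes in either direction. The fitted differences were -0.79 for Hspd1 (SE 0.27, 95% interval -1.38 to -0.20, adjusted p = 0.2) and -0.88 for Hspe1 (SE 0.17, 95% interval -1.25 to -0.51, adjusted p = 0.0814). Within the 3 libraries of high mitochondrial share they were -0.68 and -0.65, and in the remaining 4 they were -1.17 and -1.16. With each library left out in turn, Hspe1 lay between -1.05 and -0.75, with adjusted p from 0.0159 to 0.201. It passed in 2 of these 7 settings, without control 10 (-1.05, adjusted p = 0.0356, beside 0.228% of all genes) and without DSS library 75 (-0.91, adjusted p = 0.0159, beside 6.78%). Without all 3 libraries of high mitochondrial share it was -1.16 (adjusted p = 0.027, beside 5.08% of all genes), where the 1 control left has no spread of its own and is assumed to vary like the other groups.

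Markers of other cells differed between the same libraries. The summed FPKM of 7 oocyte markers lay between 119 and 210 in day 7 controls and between 249 and 390 in DSS libraries, that of 5 macrophage markers between 107 and 157 against 232 and 317, and that of 5 erythrocyte markers between 49.9 and 309 against 410 and 725. Luteal markers summed to 2400 to 3440 FPKM against 1950 to 3000 FPKM. The DSS libraries spread more widely than controls for granulosa markers (925 to 1520 FPKM in controls against 627 to 2900 FPKM) and theca markers (788 to 951 against 222 to 1030 FPKM). All members of these lists were detected, and their part in the lower Hspd1 and Hspe1 values was not tested. In bulk tissue, fewer cells of a type and less RNA per cell cannot be told apart.

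**Figure D2:**
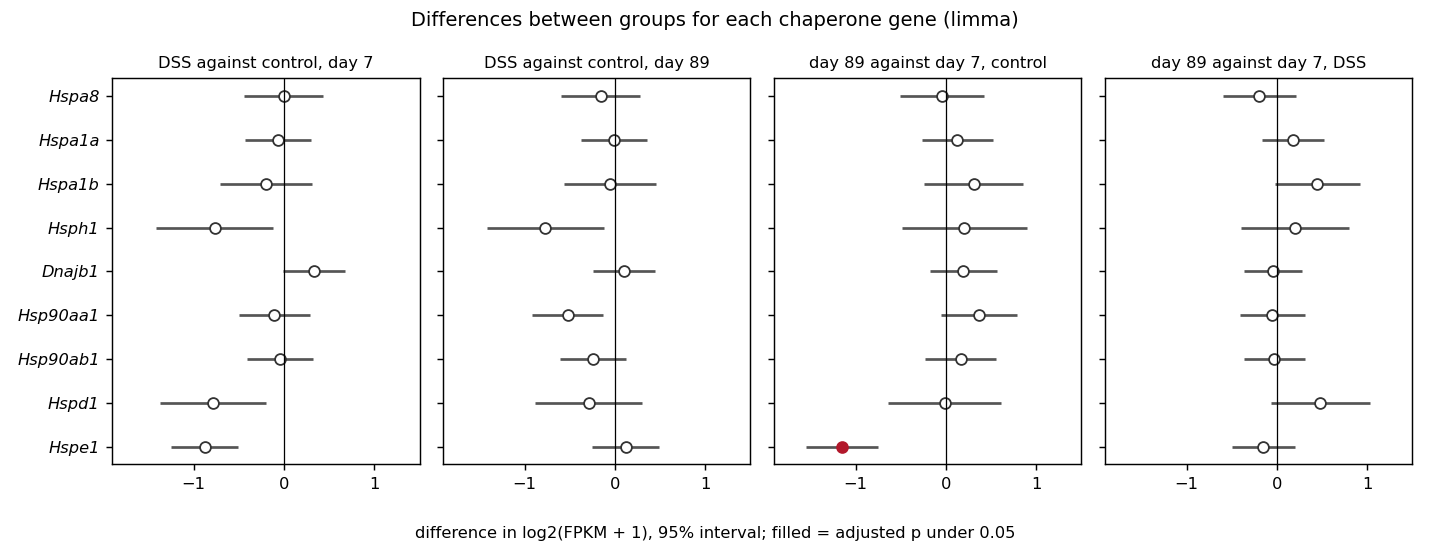
Fitted differences in log2(FPKM + 1) for each chaperone gene in 4 comparisons, with 95% intervals from limma. The filled point is the value past an adjusted p of 0.05, Hspe1 in day 89 against day 7 controls at -1.15.

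After the rest, Hsph1 and Hsp90aa1 had the largest differences, and both Hsp90 genes were lower in every DSS library than in every control. None of the 9 genes passed the adjusted threshold in limma or in limma-voom, and 1 of 18006 genes did in limma (0.00555%). Hsph1 and Hsp90aa1 were the 2 members with an unadjusted p under 0.05, beside 4.58% of all tested genes. The 2 members without overlap, Hsp90aa1 and Hsp90ab1, stand beside 8.29% of tested genes. Of the 9 differences, 7 were below 0 (median -0.16, against 0.00 over all tested genes).

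Hsp90aa1, the inducible Hsp90, measured 117, 157 and 131 FPKM in controls R123, R124 and R126 and 111, 64.4, 106 and 98.4 FPKM in DSS libraries R29, R38, R78 and R89. Hsp90ab1, the constitutive form, measured 868, 915 and 841 FPKM in those controls and 761, 633, 785 and 793 FPKM in those DSS libraries. Library R38 was lowest for both genes, and every DSS library lay under every control. The differences were -0.53 for Hsp90aa1 (SE 0.18, unadjusted p = 0.0124, adjusted p = 0.924) and -0.24 for Hsp90ab1 (SE 0.17, adjusted p = 0.924). Without R38 they were -0.35 and -0.16, each with an adjusted p of 1. The ratio of Hsp90ab1 to Hsp90aa1 FPKM was 9.83 in R38 and 5.83 to 8.99 in the other 13 libraries.

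Hsph1 measured 13.55, 30.4 and 21.7 FPKM in the day 89 controls and 13.4, 7.47, 13.1 and 14.4 FPKM in DSS libraries. Control R123 lay among the DSS libraries, and R38 was again the lowest. The difference was -0.77 (SE 0.30, unadjusted p = 0.0229, adjusted p = 0.924), -0.58 without R38 and -0.51 without control R124. Dnajb1 measured 18.6, 13.8 and 19.7 FPKM in controls and 18.2, 17.9, 17.2 and 20.6 FPKM in DSS libraries, which overlapped.

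The Hsp70 genes overlapped at day 89. Hspa8 measured 404, 400.3 and 415 FPKM in controls and 345, 402, 339 and 373 FPKM in DSS libraries, a difference of -0.16 (SE 0.20, adjusted p = 0.949). Hspa1b measured 6.30, 6.42 and 6.27 FPKM in controls and 5.34, 5.66, 5.09 and 8.60 FPKM in DSS libraries. Hspa1a measured 3.06, 3.02 and 2.24 FPKM in controls and 2.48, 2.79, 2.37 and 3.34 FPKM in DSS libraries. Library R89 was the highest for both copies, and the controls lay inside the DSS range for Hspa1b. The difference of their sum was -0.05 (exact permutation test, two-sided, p = 0.857).

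For the mitochondrial pair at day 89, DSS and control libraries overlapped. Hspd1 measured 199, 260 and 248 FPKM in controls and 248, 109, 266 and 185 FPKM in DSS libraries, with R38 the lowest of all 14. Hspe1 measured 91.4, 138 and 118 FPKM in controls and 119, 127, 124.2 and 125.6 FPKM in DSS libraries. The differences were -0.29 for Hspd1 (SE 0.27, adjusted p = 0.932) and 0.12 for Hspe1 (SE 0.17, adjusted p = 0.957). Without R38 the Hspd1 difference was -0.02. Erythrocyte markers summed to 42.7 to 45.6 FPKM in controls and 44.4 to 656 FPKM in DSS libraries, and macrophage markers to 127 to 228 against 209 to 471, and their part in these values was not tested.

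Whether the DSS effect differed between days was tested as an interaction. No tested gene passed the adjusted threshold in limma (0%) or in limma-voom, while 8.45% of genes had an unadjusted p under 0.05 in limma. Hspe1 was the 1 member among them, at 1.00 (SE 0.25, 95% interval 0.47 to 1.52, unadjusted p = 0.00121, adjusted p = 0.419). For Hsph1, whose day 7 and day 89 differences were both -0.77, the interaction was -0.01 (95% interval -0.92 to 0.91), and for Hsp90aa1 it was -0.42 (95% interval -0.97 to 0.14), or -0.24 without R38.

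In controls, Hspe1 was lower at day 89 than at day 7, and the difference of Hspd1 was close to 0. The days were separate sets of libraries, whose gene length scores also differed except in R38. The part of library preparation in the differences between days was not tested. Hspe1 was 258 ± 52.7 FPKM at day 7 (SD, n = 3) and 116 ± 23.3 FPKM at day 89 (SD, n = 3), a difference of -1.15 on the log2(FPKM + 1) scale (SE 0.19, 95% interval -1.54 to -0.75, adjusted p = 0.000979 in limma). All 3 day 89 controls lay under all 3 day 7 controls. Hspd1 was 242 ± 66.0 FPKM and 235 ± 32.4 FPKM in the same groups (SD, n = 3 each), a difference of -0.02 (95% interval -0.65 to 0.61). Hspe1 was the 1 member of 9 past the threshold, beside 31.8% of all tested genes. The same member was the 1 with an unadjusted p under 0.05, beside 43.3%. Hspe1, Hsp90aa1 and Hsp90ab1 were the 3 members whose groups did not overlap, beside 45%, the last 2 being higher at day 89.

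The Hspe1 difference between days in controls passed the threshold in limma with each library left out in turn (-1.32 to -0.99). It also passed with the gene length trend removed (-0.84, adjusted p = 0.00717) and with a term for high mitochondrial share (-1.22, adjusted p = 0.00493). In limma-voom it was -1.06 and passed (adjusted p = 0.00137). With FPKM set to equal sums it was -0.61 and did not pass (adjusted p = 0.0614), a setting that moved the median of all genes to 0.36 and left Hspe1 at -0.97 relative to that median. Under it, Dnajb1 (0.71), Hsp90aa1 (0.91) and Hsp90ab1 (0.71) passed as higher, at 0.34, 0.54 and 0.34 relative to the median, and 84.3% of all calls were higher, against 50.6% in the fit as deposited. Oocyte markers summed to 30.2 to 120 FPKM and luteal markers to 4380 to 4840 FPKM in day 89 controls, against 119 to 210 FPKM and 2400 to 3440 FPKM at day 7. Their part in the lower Hspe1 values was not tested.

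In DSS mice no member passed between the days in limma or in limma-voom, and none had an unadjusted p under 0.05 in either. In limma, 21.4% of all tested genes passed the adjusted threshold and 36.6% had such a p. No member was without overlap, beside 24.8% of genes. The largest differences were 0.48 for Hspd1 (SE 0.25, adjusted p = 0.188) and 0.45 for Hspa1b (SE 0.22, adjusted p = 0.159). Without R38 the Hspd1 difference was 0.75 and passed (adjusted p = 0.0168), beside 27.4% of all genes, and without DSS library 75 the Hspa1b difference was 0.27. Hspe1 was 138 ± 13.8 FPKM at day 7 and 123.9 ± 3.40 FPKM at day 89 (SD, n = 4 each), a difference of -0.15 (SE 0.16, adjusted p = 0.526). The comparisons between days and between treatments share groups, so their values stand side by side and were not counted as separate evidence.

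The lid and the barrel of the mitochondrial chaperonin can be set against each other within a library. The ratio of Hspe1 to Hspd1 FPKM was 1.05, 0.95 and 1.24 in the day 7 controls and 1.16, 0.96, 0.89 and 1.04 in the day 7 DSS libraries. It was 0.46, 0.53 and 0.48 in the day 89 controls and 0.48, 1.17, 0.47 and 0.68 in the day 89 DSS libraries R29, R38, R78 and R89. The days therefore did not overlap except for R38, whose ratio lay among those of day 7. Its gene length score, 0.107, lay just below the day 7 range and above all other day 89 libraries. Hspe1 is the shorter gene of the pair, at a deposited length of 1474 bases against 2642 for Hspd1. The part of gene length in this ratio was not tested.

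**Figure D3:**
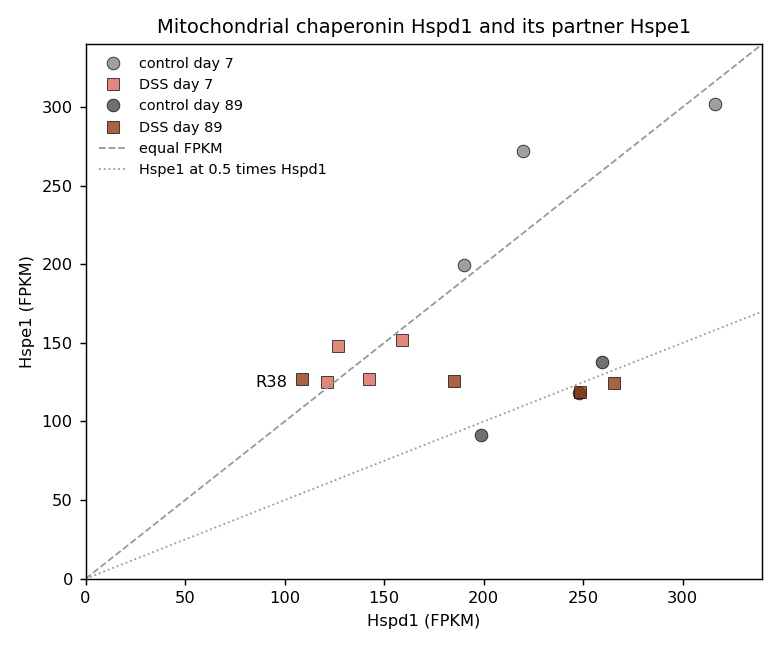
Hspe1 FPKM (vertical axis) against Hspd1 FPKM (horizontal axis) in 14 libraries, with circles for control, squares for DSS, and lines at equal FPKM and at Hspe1 equal to 0.5 times Hspd1. Day 7 libraries lie near the line of equality, and day 89 libraries lie near the lower line except R38, at a ratio of 1.17, and R89, at 0.68.

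Over all 14 libraries the members did not move as 1 block. The Pearson correlation of log2(FPKM + 1) was 0.86 between the near-identical Hspa1a and Hspa1b. It was 0.82 between Hsph1 and Hspd1, 0.82 between Hsph1 and Hsp90aa1 and 0.78 between Hsp90aa1 and Hsp90ab1. Hspd1 and Hspe1, neighbours with a shared promoter window, gave 0.31, and Hspa8 and Hspd1 gave -0.38. Around the group means, the values were 0.74 for Hsph1 with Hspd1 and 0.39 for Hspd1 with Hspe1. These describe 14 libraries that share groups, depth and gene length trends and carry no test.

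The mean of the members' centred log2 values was highest in controls R124 (0.26), 51 (0.24) and 53 (0.22). It was lowest in DSS libraries 75 (-0.32) and R38 (-0.29). The mitochondrial share was 14.2% in 75, the highest of all, and 3.66% in R38. It was 12.2% in control 53, among the highest means, and 9.96% in control 10, with a mean of -0.07. Among 12571 other expressed genes, the 8 whose values followed this mean most closely over the 14 libraries were Kank4 (Pearson r 0.89), Zfp251 (0.89), Ddx51 (0.87), Zfp12 (0.87), Ubap1 (0.86), Cxadr (0.86), Hsp90b1 (0.85) and Fbxo22 (0.85). Hsp90b1 encodes GRP94, the Hsp90 of the endoplasmic reticulum, and reached 315 FPKM.

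**Figure D4:**
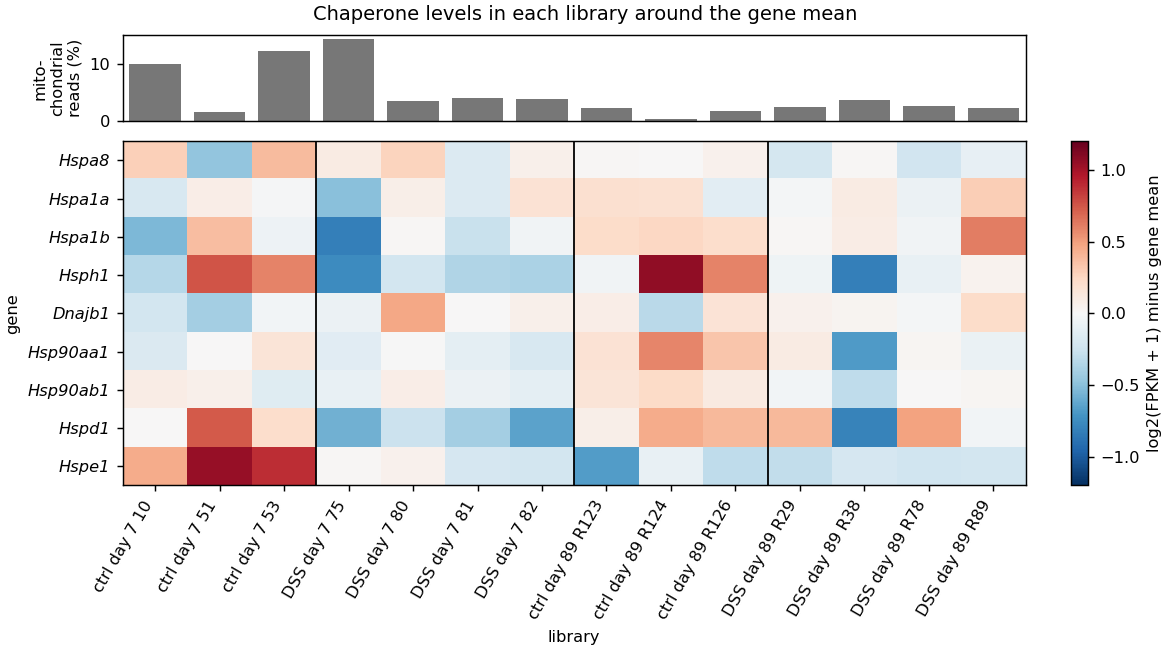
Colour gives each gene's log2(FPKM + 1) minus its mean over the 14 libraries (rows, genes; columns, libraries by group), and the bars above give the percentage of reads from mitochondrially encoded genes. Hspe1 is high in the 3 day 7 controls, and Hsph1, Hsp90aa1 and Hspd1 are low together in DSS library R38.

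The wider chaperone network was described through 10 lists of 122 genes, of which 119 were tested. None passed between DSS and control at day 7 or day 89 in limma or in limma-voom, where 13 and 6 genes had an unadjusted p under 0.05 in limma (10.9% and 5.04%, beside 16% and 4.58% of all tested genes) and 10 and 4 in limma-voom. The J-domain proteins, which start the Hsp70 cycle, had 8 of 12 differences below 0 at day 7 (median -0.15) and 8 of 12 at day 89 (median -0.14). The Hsp90 co-chaperones, which load and time the Hsp90 cycle, had 13 of 16 below 0 at day 7 (median -0.25) and 14 of 16 at day 89 (median -0.13). At equal FPKM sums those Hsp90 co-chaperone counts were 12 and 14 of 16. Other mitochondrial chaperones and proteases had 6 of 15 below 0 at day 7 (median 0.05) and 10 of 15 at day 89 (median -0.05), or 2 and 11 of 15 at equal FPKM sums. The nucleotide exchange and adaptor factors of Hsp70 had 9 of 12 below 0 at day 7 and 10 of 12 at day 89, the other Hsp70 proteins 2 and 4 of 5, the cytosolic chaperonin with prefoldin 7 and 10 of 14, the heat shock factors and regulators 5 and 5 of 11, and the immediate-early genes, which mark handling or acute stimulation, 6 and 9 of 12. The small heat shock proteins, which hold unfolded proteins without ATP, had 2 of 7 above 0 at day 7 (median -0.15) and 6 of 7 at day 89 (median 0.25), or 3 and 5 of 7 at equal FPKM sums. The chaperones of the endoplasmic reticulum had 4 of 15 below 0 at day 7 (median 0.07) and 15 of 15 at day 89 (median -0.43), and 15 of 15 at day 89 also at equal FPKM sums and in limma-voom. Those day 89 counts rest on the same libraries and are not separate evidence. Of all tested genes, 50.8% lay above 0 at day 89 in the fit as deposited. Hsf1, the heat shock transcription factor, named here after its values were seen, was 7.76 ± 1.19 FPKM in day 7 controls (n = 3) and 9 ± 1.05 FPKM in day 7 DSS libraries (n = 4), a difference of 0.19 (adjusted p = 0.517 in limma), with overlap. At day 89 it was 6.83 ± 0.617 FPKM in controls (n = 3) and 8.255 ± 1.06 FPKM in DSS libraries (n = 4), a difference of 0.24 (adjusted p = 0.924 in limma). Every DSS library lay above every control at day 89, beside 8.29% of tested genes without overlap.

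**Figure D5:**
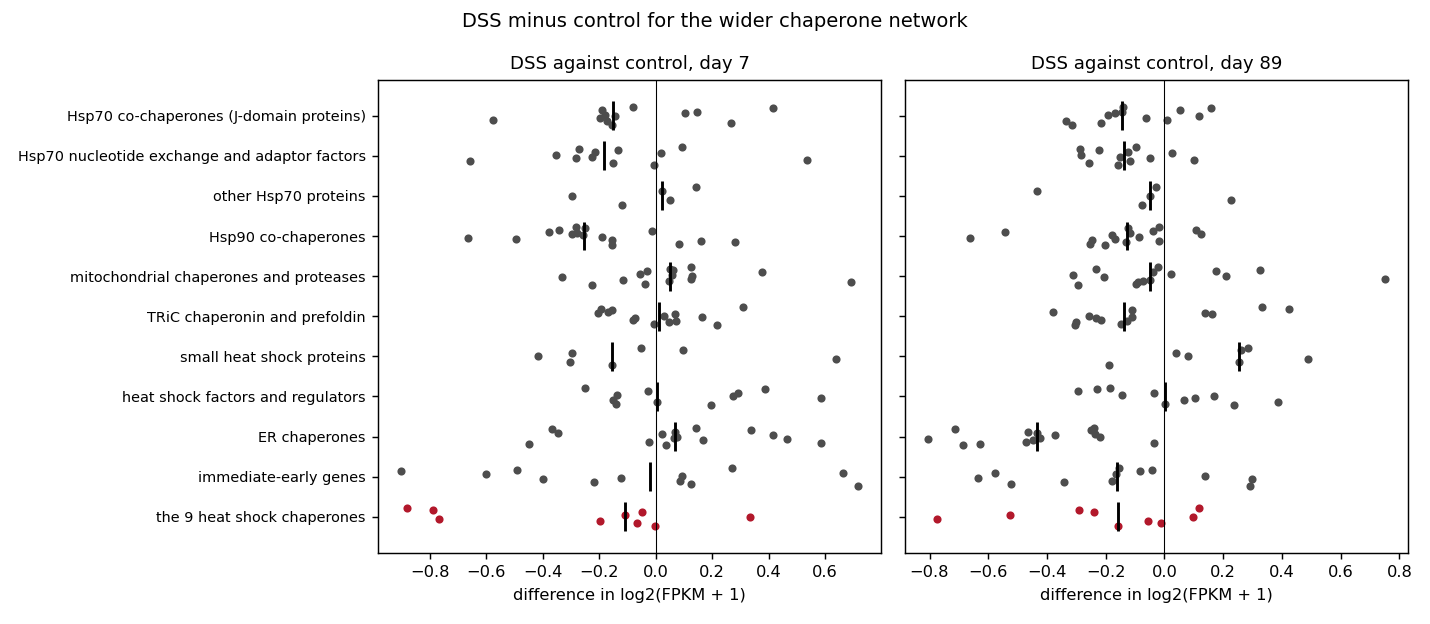
DSS minus control difference in log2(FPKM + 1) at day 7 (left) and day 89 (right) for each tested gene (points) of 10 chaperone-related lists and of the 9 heat shock chaperones, with a bar at each median. The 15 chaperones of the endoplasmic reticulum all lie below 0 at day 89, with a median of -0.43, and none passed the test.

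Between the days, 21 of the 119 listed genes passed as higher and 18 as lower at day 89 in controls (32.8% in all), and 8 and 14 in DSS mice (18.5%), shares near those of all tested genes. At equal FPKM sums the splits were 38 higher and 3 lower in controls and 12 and 4 in DSS mice. Genes whose change passed in controls under all alternatives tried included Grpel1, the nucleotide exchange factor of mitochondrial Hsp70 (1.06, adjusted p = 0.000917), the inner membrane protease Yme1l1 (0.98, adjusted p = 0.00174) and the endoplasmic reticulum lectin Calr (1.31, adjusted p = 0.00275). In the list of the cytosolic chaperonin and prefoldin, which delivers actin and tubulin to it, 1 of 14 genes passed as higher and 4 as lower in controls (3 and 2 at equal FPKM sums), with Pfdn5 at -1.80 (adjusted p = 0.00103) and Pfdn2 at -1.03 (adjusted p = 0.0025). Some genes passed between the days in both DSS mice and controls. Trap1, the mitochondrial Hsp90, was higher at day 89 by 0.47 in DSS mice (adjusted p = 0.0105) and by 0.52 in controls (adjusted p = 0.00689). The J-domain protein Dnaja4 was higher by 1.68 (adjusted p = 0.00696) and 1.85 (adjusted p = 0.0049). From the same 2 lists, Dnajc19 differed by -0.52 (adjusted p = 0.0344) and -0.79 (adjusted p = 0.00673), and Dnajc7 by -0.56 (adjusted p = 0.0394) and -0.80 (adjusted p = 0.0102). The mitochondrial list had 5 genes higher and 4 lower in controls, and 3 and 1 in DSS mice. For J-domain proteins these were 2 and 2, and 1 and 2. At equal FPKM sums, 0 genes of either list passed as lower. Ptges3, the Hsp90 co-chaperone p23, differed by -0.81 in DSS mice (adjusted p = 0.00206) and -0.71 in controls (adjusted p = 0.00342), and Pfdn4 by -0.99 (adjusted p = 0.00147) and -1.04 (adjusted p = 0.00066). At equal FPKM sums Ptges3 did not pass in controls, where 0 genes of the Hsp90 co-chaperone list passed as lower, against 1 in DSS mice.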

How the data were processed

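Ovary libraries were grouped by the treatment and day in their titles, and no label gives a batch. Expression was deposited by the authors as FPKM per gene and library. HISAT2 2.0.5 and GRCm38 are named in the submitters' processing notes, and no source used here gives the counter, annotation release, strand setting or treatment of multimapping reads. FPKM times the deposited gene length fell on whole steps in each library (tolerance 0.01 of a step, values under 300 steps, 100% whole), which gave the reads behind each value.

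Genes with at least 0.5 FPKM in at least 3 of 14 libraries were tested (18006 genes) as log2(FPKM + 1), a scale that understates changes of low genes. A model with 1 mean per group was fitted in limma 3.58.1 (R 4.3.3) with a mean-dependent prior variance, and p-values were adjusted over all tested genes by the Benjamini-Hochberg method, at a threshold of 0.05. The fit was run on simulated data with known changes and independent noise, without the library differences in mitochondrial share or gene length. The summed Hspa1a and Hspa1b values were compared by an exact permutation test. Alternatives changed the pseudocount, filter, libraries, scaling, mitochondrial share and gene length trend, and limma-voom on the recovered reads and the libraries left out of the Hspa1 sum were added after seeing the data.

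The 9 members, the lists and the tests were chosen with earlier results of these data known. All members were named. From each list the rule took up to 6 genes past the threshold in any comparison, by smallest p, and it took the 8 genes most correlated with the members' mean, leaving out predicted and unnamed genes. Deposited positions differ from the annotation, so positions are those of GENCODE on GRCm38, matched by gene ID. Promoter windows are from RefSeq on GRCm38.p6. Intervals and counts cover these libraries only.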

Additional observations from a re-analysis of the deposited data

Results flagged for a closer look

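Hspa1b in DSS day 89 library R89 measured 8.60 FPKM, far from the other 3 libraries of that group, which lay between 5.09 and 5.66 FPKM. The gap was 0.838 of the group's range, against a critical value of 0.829 for 4 libraries. The same library was also the highest of its group for Hspa1a, at 3.34 FPKM. Of 22 groups of values looked at in this way, this was the 1 that stood out, and chance picks out about 1 in 20.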

How the results depend on the processing

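No paired analysis was possible because the library numbers are all different, so none is shared by the groups compared. Of 45 member results, 1 passed the threshold, and the signs of the others rest on differences that did not pass. Over the alternatives other than leaving out a library, 379 of 424 member values counted as kept. For tested values, kept means the same direction and side of the threshold. Untested differences within the libraries of high mitochondrial share or within the others were kept if closer than the larger group SD. The summed Hspa1 value was entered under both copies. Of the rest, 35 turned sign, 4 passed where the fit as deposited did not and 1 no longer passed. The remainder were untested differences further off. Leaving out 1 library kept 338 of 378 and turned 37. The cause was not tested where no value is named.

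With FPKM set to equal sums, the sign turned in DSS against control at day 7 for Hspa8 (0.14), Hspa1a (0.052), Hsp90aa1 (0.038) and Hsp90ab1 (0.10). In day 89 against day 7 it turned in controls for Hspa8 (0.50) and Hspd1 (0.53), and in DSS mice for Hspa8 (0.13), Dnajb1 (0.27), Hsp90aa1 (0.28), Hsp90ab1 (0.30) and Hspe1 (0.18). In the difference of the DSS effects it turned for Hspa1a (-0.11) and Hspa1b (-0.052). That setting moved the median of all genes by 0.10 in DSS against control at day 7, -0.04 at day 89, 0.36 between days in controls, 0.23 in DSS mice and -0.16 in the difference of effects. The share of calls that were higher moved from 50.6% to 84.3% in controls and from 49.9% to 78.6% in DSS mice. With a term for high mitochondrial share, the sign turned for Hspa8 at day 7 (0.16), for Hspa8 (0.23), Hspa1a (-0.12), Hspa1b (-0.16) and Hsph1 (-0.15) between days in controls, and for Hsph1 in the difference of effects (0.21). With those 3 libraries left out it turned for Hspa8 at day 7 (0.52), for Hspa8 (0.50), Hspa1b (-0.14) and Hsph1 (-0.22) between days in controls, and for Hsph1 in the difference of effects (0.31). With the gene length trend removed it turned for Hsph1 (-0.054) and Hspd1 (0.11) between days in controls, for Hsp90ab1 (0.033) and Hspe1 (0.069) between days in DSS mice, and for Hsph1 in the difference of effects (0.074). In limma-voom it turned for Hspa8 (0.082) and Hsp90ab1 (0.035) at day 7, for Hspa1a (0.021) at day 89, for Hspa8 (0.052) and Hspd1 (0.078) between days in controls, and for Hsp90ab1 (0.017) in DSS mice. limma-voom moved the median of all genes by 0.09, 0.04, 0.10 and 0.06 in these 4 comparisons, more than any of those values.

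With each library left out in turn, the members whose sign turned had these ranges. DSS against control at day 7 gave -0.27 to 0.15 for Hspa8, -0.43 to 0.025 for Hspa1b and -0.16 to 0.065 for Hspa1a, and at day 89 -0.12 to 0.045 for Hspa1a, -0.043 to 0.25 for Hspe1, -0.051 to 0.19 for Dnajb1 and -0.21 to 0.014 for Hspa1b. Between days in controls the ranges were -0.31 to 0.12 for Hspa8, -0.14 to 0.49 for Hsph1 and -0.17 to 0.19 for Hspd1, and in DSS mice -0.10 to 0.075 for Dnajb1, -0.061 to 0.047 for Hsp90ab1 and -0.13 to 0.12 for Hsp90aa1. In the difference of effects they were -0.30 to 0.33 for Hsph1, -0.31 to 0.11 for Hspa8, -0.076 to 0.15 for Hspa1a and -0.082 to 0.37 for Hspa1b. The summed Hspa1a and Hspa1b difference ranged from -0.36 to 0.013 at day 7 and from -0.18 to 0.023 at day 89.

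The count of genes past the threshold in DSS against control at day 7 was 6 in the fit as deposited, 2 with a pseudocount of 0.1, 0 with only the compared groups, 0 at equal sums, 20 with the mitochondrial term, 915 with the 3 libraries left out (1 of them a member, Hspe1; the 1 control left is assumed to vary like the other groups), 10 with the length trend removed and 0 in limma-voom. Leaving out 1 library gave 0 (without DSS 80) to 1221 (without DSS 75), and 0 to 1 members. At day 89 the count of 1 became 5 with no filter and 0 with a pseudocount of 0.1, the stricter filter, the compared groups alone, the 3 libraries left out, the length trend removed or limma-voom, and leaving out 1 library gave 0 to 2. Between days in controls the 5732 calls became 3141 with the mitochondrial term and 3231 with the 3 libraries left out, and 3695 (without control 53) to 6034 when 1 library was left out, and 3 members passed at equal sums. In DSS mice the 3860 calls became 2034 (without R29) to 4930 (without R38), and 0 to 1 members. The difference of effects had 0 calls, 2 with no filter, 3 with the 3 libraries left out and 0 to 41 (without DSS 75) when 1 library was left out.

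Hspa1a and Hspa1b rest on the fewest reads of the members, at 60 to 426 reads per gene and library. The day 7 count above depends on which library is left out.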
